A study of Homo sapiens with 6 samples.

Results

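The genes described here are the histone genes of HT29 cells: every protein-coding gene whose symbol began with HIST and a digit, or with H2AF, H3F or H1F. The rule found 87 genes among the 58978 in the count table. Of these, 71 were HIST genes, most of which lie in clusters and encode canonical histones, and 16 were variant genes. The split is by symbol alone, and counts of canonical genes below are counts of HIST genes. HT29 is an established human colorectal adenocarcinoma cell line. RNA-seq compared 3 libraries of HT29 cells with a control hairpin (shCTRL, labelled WT) with 3 libraries of HT29 cells in which a hairpin lowered FITM2 (shFITM2, labelled FITM2 knockdown). FITM2 is an endoplasmic reticulum membrane protein needed for lipid droplets to form. All 6 libraries are labelled untreated. How many hairpins were used, with which sequence, and in clones or pools, is not given in the sources used here. No label says that replicates came from separate cultures, so the spread behind each p-value is that between libraries and could be technical.

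Canonical histone genes are read mainly during DNA replication, when new DNA must be wrapped, and lie in clusters of near-identical copies. Their mRNAs usually have no poly(A) tail: they end just after a stem-loop in the 3′ UTR that is bound by the stem-loop binding protein SLBP and cut with the help of the U7 small nuclear RNP. Variant histones such as H3.3, H2A.Z and H1.0 are made throughout the cell cycle from polyadenylated, mostly spliced mRNAs and replace canonical histones at particular places in chromatin. Many canonical genes can also give a longer, polyadenylated mRNA that runs past the stem-loop. Whether the libraries were made by poly(A) selection or by removal of ribosomal RNA is not given in the sources used here.

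The hairpin's target, FITM2, had 13.2, 10.5 and 10.4 CPM (read counts scaled to the library size) in shCTRL and 4.83, 5.98 and 4.95 CPM in shFITM2, a fold of 0.460 (adjusted p = 0.000242). Library totals lay between 16964075 and 18855731 reads. The 12 colorectal epithelial markers all had reads, with sums of 180407 to 200392 per shCTRL library and 224945 to 254945 per shFITM2 library. Another 12 markers of blood, vessel, fibroblast and liver cells summed to 210 to 270 reads per library, with 3 of them at 0. A gene was called where edgeR's quasi-likelihood test gave an adjusted p under 0.05 over all 14809 tested genes. A second fit took out the dependence of each library on the GC content of transcripts (the GC-adjusted fit), and it turns some of the results below. Any real change that goes with GC content is removed as well. Of the 12 colorectal markers, 7 were called higher (58.3%, against 24.2% of all tested genes) and 1 lower (8.33%, against 24.5%). In the GC-adjusted fit 4 were higher (33.3%, against 11.8%) and 2 lower (16.7%, against 17.4%). In many genes described below shCTRL replicate 3 lay between the other shCTRL libraries and the shFITM2 libraries. The part of GC content and of that library in the results was not tested.

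The stem-loop is the feature that sets canonical histone mRNAs apart, so it was read from the GENCODE 29 transcripts of each gene. The 16-base histone stem-loop, with 6 paired stem positions (G-U pairs allowed) from GG at its start to CC at its end, was searched on the transcript strand. It was searched with the innermost pair fixed as T with A and 1 loop base fixed as T. It was present in 33 of the 87 genes, in each case in the 3′ UTR and 22 to 67 bases after the stop codon. These were 32 of the 71 HIST genes and 1 variant gene, H2AFX. The same search, at any place in a transcript, found a match in 399 of 19835 other protein-coding genes (2.01%). The sites below are those of the HIST genes called in shFITM2 against shCTRL without GC adjustment and of H2AFX. They have 5 flanking bases on either side and the stem-loop in capitals (GRCh38, from GENCODE 29).
HIST1H2AC, chr6:26124664-26124689, plus strand: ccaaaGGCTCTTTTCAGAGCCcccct
HIST1H3E, chr6:26225591-26225616, plus strand: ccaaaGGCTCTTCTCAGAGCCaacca
HIST3H2A, chr1:228457364-228457389, minus strand: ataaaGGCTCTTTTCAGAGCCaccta
HIST1H4I, chr6:27139649-27139674, plus strand: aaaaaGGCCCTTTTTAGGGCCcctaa
H2AFX, chr11:119094893-119094918, minus strand: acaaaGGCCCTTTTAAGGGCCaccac

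Few spellings of the stem-loop accounted for all matches, in a search that fixed some of the letters. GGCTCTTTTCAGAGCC was shared by 17 genes, of which 6 encode H2A, 8 H2B and 3 H3. In other protein-coding genes this exact spelling occurred in 1 gene (0.00504%). H4 genes with a match had a stem of another spelling: 5 had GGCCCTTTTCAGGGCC and 3 had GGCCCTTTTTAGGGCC, the form of HIST1H4I. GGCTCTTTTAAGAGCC was present in 3 H2B and 2 H3 genes. HIST1H3E (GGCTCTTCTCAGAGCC), H2AFX (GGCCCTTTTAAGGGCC) and 1 H2A gene (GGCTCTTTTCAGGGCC) each had a spelling of their own.

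The HIST genes with the most reads were largely those whose annotated transcripts run on past the stem-loop. In 23 HIST genes an annotated transcript went more than 100 bases beyond it, a limit chosen after seeing the data. These genes had 2 to 2474 reads over the 6 libraries (median 123), 16 of the 23 passed the expression filter, and 18 had a poly(A) signal (AATAAA or ATTAAA) in the last 60 bases of a transcript. In 9 genes the transcripts with a stem-loop ended within 100 bases of it: reads were 1 to 704 (median 11) and 2 passed the filter. The gene with 704 reads, HIST1H2BD, also has an annotated transcript without the stem-loop, and both of its transcripts end with a poly(A) signal. The 39 genes with no match in their annotated transcripts, many annotated as little more than the coding sequence (median length 393 bases), had a median of 6 reads, and 5 passed. Reads also grow with the length counted, and the medians per kilobase were closer, at 0.517, 0.218 and 0.144 CPM per kilobase. This is a description of annotation and reads, with no test.

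**Figure D1:**
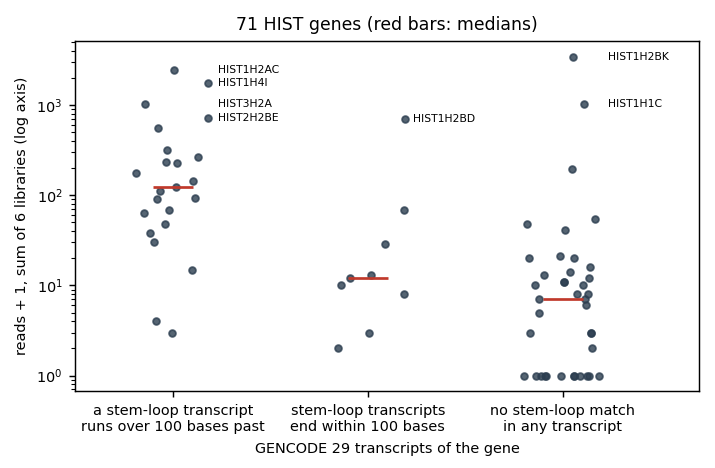
Reads of each of the 71 HIST genes, summed over the 6 libraries plus 1 (log axis), by where the GENCODE 29 transcripts with a stem-loop end relative to it. Points are genes and red bars are medians: the 23 genes with a transcript that runs more than 100 bases past the stem-loop have a median of 123 reads, against 11 for the 9 whose stem-loop transcripts end near it and 6 for the 39 without a match, where HIST1H2BK stands highest at 3461.

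HIST1H2AC, HIST1H3E, HIST3H2A and HIST1H4I, the 4 HIST genes called without GC adjustment, all belonged to the longer group. That group held 16 of all 23 tested HIST genes, and a link between calls and transcript ends was not tested. In the GC-adjusted fit HIST3H2A was not called, and HIST1H2BK, which had no match, was. Transcripts of the 4 genes went on for 1128, 1862, 390 and 212 bases after the stem-loop. H2AFX, which is known to give both a stem-loop mRNA and a longer polyadenylated one, went on for 1044 bases. HIST1H2BK had the most reads of any HIST gene, and yet its single annotated transcript held 381 bases with neither a stem-loop match nor a poly(A) signal. That model ends at the coding sequence, so no match here says only that these letters are not in the annotated transcript.

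Canonical H2A and H2B genes often stand head to head and share the stretch between their starts as a promoter. There were 12 such divergent pairs, 11 of them an H2A with an H2B gene, with 218 to 356 bases between the annotated starts. HIST1H2BO was counted with both HIST1H2AM and HIST1H3J, which overlap each other on the same strand. In the pairs with most reads, 1 partner held nearly all of them. HIST1H2BK had 3461 reads and HIST1H2AH had 10, which is 9084 against 25.8 reads per kilobase of transcript. HIST1H2AC had 2474 reads and HIST1H2BC had 112 (1496 against 170 per kilobase). HIST3H2A had 1042 reads and HIST3H2BB had 62 (1164 against 26.2 per kilobase).

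In the next pair HIST2H2BE had 721 reads and HIST2H2AC had 47 (329 against 121 per kilobase). For HIST1H2AG and HIST1H2BJ (227 and 194 reads) and for HIST1H2BG and HIST1H2AE (123 and 67 reads) the order turned once length was counted: HIST1H2AG had 101 reads per kilobase against 204 for HIST1H2BJ, and HIST1H2BG had 80.2 against 132 for HIST1H2AE. In the remaining 6 pairs neither gene passed the expression filter, and reads were few (HIST1H2BF had 37 and HIST1H2AD 0, for example). HIST1H2AD lies within the span of AL031777.3 on the same strand, so its count may leave out reads. All values for the pairs are levels over all 6 libraries. The lengths are those of the annotated transcripts, which may not be the ones made in these cells.

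**Figure D2:**
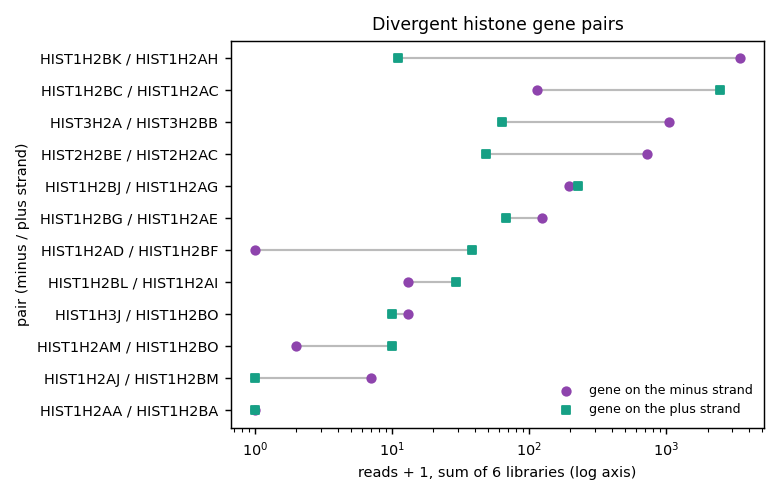
Reads of both genes of each divergent pair, summed over the 6 libraries plus 1 (log axis); circles are the gene on the minus strand and squares the gene on the plus strand. Among the pairs with a tested gene, the widest gaps are those of HIST1H2BK (3461) with HIST1H2AH (10), HIST1H2AC (2474) with HIST1H2BC (112) and HIST3H2A (1042) with HIST3H2BB (62).

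Promoter sequences from RefSeq (GRCh38.p14) matched 80 of the 87 genes, 66 HIST and 14 variant. In the 250 bases before the start, on either strand, the CCAAT box (CCAAT) was present in 56 of 66 HIST and 11 of 14 variant promoters, against 33.0% of 27305 promoters. The TATA box (TATAAA) was present in 44 of 66 and 4 of 14, against 11.1%, and the octamer bound by OCT1 at H2B genes (ATTTGCAT) in 26 of 66 and 1 of 14, against 1.66%. Both genes of a divergent pair share much of this window, so promoters of pairs are not independent. The promoter between HIST1H2BC and HIST1H2AC, the most unequal pair with both genes tested, and those of HIST1H2BK and H2AFX are shown with the 3 motifs in capitals wherever they occur on either strand. The first runs the length of the gap and the other 2 are the 250 bases before the start (GRCh38, from RefSeq).
HIST1H2BC to HIST1H2AC, chr6:26123927-26124144, plus strand: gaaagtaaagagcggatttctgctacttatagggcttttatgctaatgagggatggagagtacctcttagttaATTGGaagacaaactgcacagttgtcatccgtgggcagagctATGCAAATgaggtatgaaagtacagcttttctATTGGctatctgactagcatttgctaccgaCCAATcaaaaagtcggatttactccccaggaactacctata
HIST1H2BK, chr6:27146859-27147108, minus strand: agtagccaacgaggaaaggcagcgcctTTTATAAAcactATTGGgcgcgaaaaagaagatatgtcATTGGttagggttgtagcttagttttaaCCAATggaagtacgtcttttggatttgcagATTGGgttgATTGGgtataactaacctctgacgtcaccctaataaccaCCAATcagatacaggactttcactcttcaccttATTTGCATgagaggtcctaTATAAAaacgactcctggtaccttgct
H2AFX, chr11:119095466-119095715, minus strand: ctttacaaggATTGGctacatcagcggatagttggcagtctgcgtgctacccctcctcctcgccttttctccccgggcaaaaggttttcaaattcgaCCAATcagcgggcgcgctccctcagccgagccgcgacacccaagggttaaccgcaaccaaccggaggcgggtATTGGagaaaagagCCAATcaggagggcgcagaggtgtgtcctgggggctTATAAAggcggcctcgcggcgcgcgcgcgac

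The stretch shared by HIST1H2BC and HIST1H2AC held 3 CCAAT boxes and 1 octamer, and no TATAAA. That of HIST1H2BK held 6 CCAAT boxes, 1 octamer and 3 matches to TATAAA, 2 of which overlap. H2AFX, a variant gene with the stem-loop of a canonical one, had 4 CCAAT boxes and 1 TATAAA match and no octamer. A match describes the letters and is not a bound site.

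Variant genes supplied nearly all histone reads. They made up 300292 of the 314730 reads of the 87 genes (95.4%), and the 71 HIST genes together had 14438. This share of reads need not be the share of histone mRNA in the cells, since the selection of the libraries is not given. Of the HIST genes 59 had a read in some library and 12 were at 0 in all 6. A count of 0 allows up to 3 reads (counting error only). That limit leaves out reads lost where genes overlap, and how such reads were counted is not given. HIST1H3D and HIST1H2AD, both at 0, lie within the span of AL031777.3 on the same strand, which had 0 to 10 reads per library. HIST2H3PS2 and HIST1H2AK, also at 0, overlap other genes too. Of the variant genes 14 had a read. The expression filter passed 23 HIST genes (47 to 3461 reads) and 9 variant genes (6070 to 59226 reads). The 48 HIST genes that did not pass had 0 to 62 reads, and the 7 variant genes that did not had 0 to 23. The latter include H2AFY2 (macroH2A2), the H2A.B genes and the germ-cell linker genes H1FNT and H1FOO.

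Reads of HIST genes came from a handful of genes. HIST1H2BK alone gave 24.0% of them, the top 3 (HIST1H2BK, HIST1H2AC and HIST1H4I) 53.3% and the top 8 81.3%. Per kilobase of the counted gene length, the mean level over the 6 libraries was 85.5 CPM per kilobase for HIST1H2BK. It was 14.9 for HIST1H1C (linker histone H1.2), 13.9 for HIST1H2AC, 12.6 for HIST1H4I, 10.9 for HIST3H2A and 7.60 CPM per kilobase for HIST1H2BD.

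On the same scale the variants were led by H2AFX at 243 CPM per kilobase, followed by H2AFZ at 199, H3F3A at 144, H1F0 at 117 and H3F3B at 90.5. H1FX stood at 53.0, H2AFV at 42.7, H2AFY at 19.3 and H2AFJ at 17.04 CPM per kilobase. The length counted here covers all exons of a gene. Per kilobase of 1 annotated transcript, H2AFZ led at 469 and H2AFY and H2AFJ stood at 123 and 88.8, so the order depends on the length used.

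**Figure D3:**
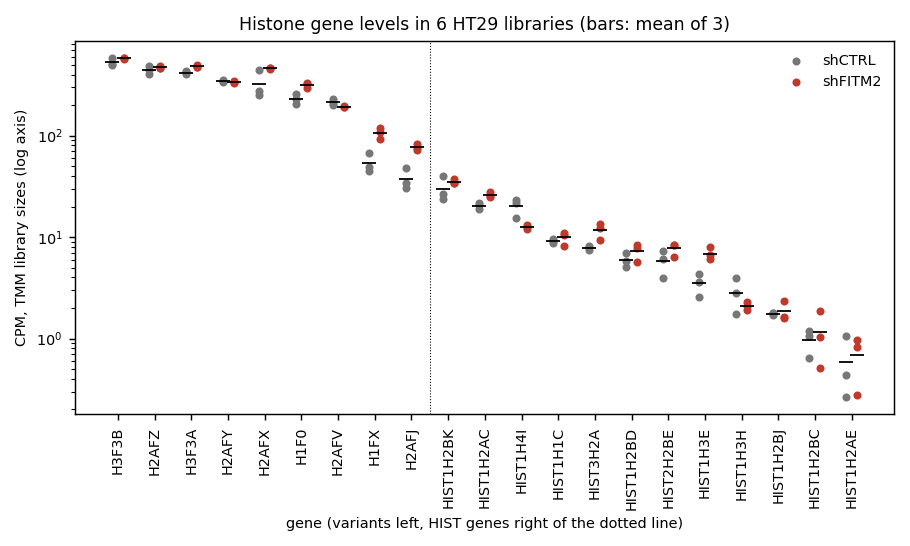
CPM of the histone genes named by rule in each library (log axis, not divided by length). Every tested variant is left of the dotted line, and the HIST genes highest per kilobase are right of it. The other tested HIST genes are not shown. Points are libraries coloured by group and bars the mean of 3. Every tested variant lies between 30.2 and 587 CPM, and HIST1H2BK, the highest HIST gene, between 23.7 and 39.8 CPM.

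Summed over genes, HIST genes had 130, 119 and 139 CPM in shCTRL and 135, 143 and 146 CPM in shFITM2 (129 ± 10.3 against 141 ± 5.61, SD, n = 3), and the groups overlapped. Variant genes had 2472, 2480 and 2851 CPM in shCTRL and 3049, 3055 and 2979 CPM in shFITM2 (2601 ± 216 against 3028 ± 42.4). Those groups did not overlap, and the highest shCTRL library was replicate 3. Among HIST genes the H2A sum was 32.04 ± 0.607 CPM in shCTRL and 41.4 ± 3.41 CPM in shFITM2, and the H4 sum 23.9 ± 4.29 and 16.1 ± 0.437 CPM. These differences lay in few genes: without HIST1H2AC and HIST3H2A the H2A sum was 3.797 and 3.864 CPM, and without HIST1H4I the H4 sum was 3.73 and 3.61 CPM. Sums for H1 (10.2 and 10.5 CPM), H2B (52.8 and 60.2 CPM) and H3 (10.4 and 12.9 CPM) overlapped between groups. Sums over members have no test.

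Against a background where 48.7% of all tested genes were called (24.2% higher and 24.5% lower), 8 of the 32 tested histone genes were called in shFITM2 against shCTRL. Of 9 variants, 4 were called higher (H1F0, H1FX, H2AFJ and H3F3A) and 0 lower, and 0 were lower at an unadjusted p under 0.05 or by DESeq2 or limma-voom. Of 23 HIST genes, 3 were called higher (HIST1H2AC, HIST1H3E and HIST3H2A) and 1 lower (HIST1H4I). The median log2 fold change was 0.21 over tested variants and 0.18 over tested HIST genes, against -0.0002 over all tested genes.

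The GC-adjusted fit called 29.2% of 14635 genes (11.8% higher and 17.4% lower). There, 4 variants were higher (H1F0, H2AFJ, H3F3A and H3F3B) and 2 lower (H2AFX and H2AFY). HIST1H2AC and HIST1H3E were higher and HIST1H4I and HIST1H2BK lower. Medians were 0.19 for variants and 0.07 for HIST genes, against -0.03 for all genes tested. Called with the same direction in both fits were thus H1F0, H2AFJ, H3F3A, HIST1H2AC and HIST1H3E (higher) and HIST1H4I (lower). Of all 14635 genes in both fits, 1157 were higher in both and 1465 lower in both. Without regard to a test, 59.0% of all tested genes had groups that did not overlap (29.1% higher and 29.9% lower), and so did 6 variants (5 higher, 1 lower) and 8 HIST genes (3 higher, 5 lower).

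**Figure D4:**
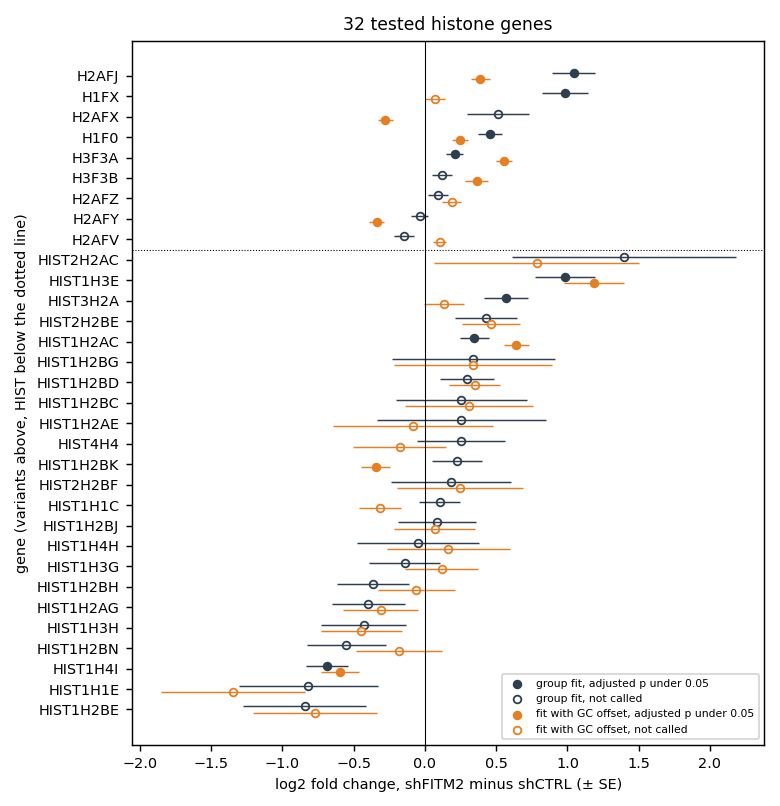
Log2 fold change (shFITM2 minus shCTRL, ± SE) of the 32 tested histone genes in the group fit and in the GC-adjusted fit; filled points have an adjusted p under 0.05. HIST1H3E (0.98 and 1.18) and HIST1H4I (-0.69 and -0.60) are called on the same side in both fits, and H2AFX (0.51 and -0.28) lies on opposite sides.

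Linker histones bind the DNA between nucleosomes. H1F0 (H1.0, the linker histone typical of differentiated and slowly dividing cells, chr22:37805093-37807436, plus strand) stood at 229, 205 and 258 CPM in shCTRL and 330, 324 and 296 CPM in shFITM2. Each shFITM2 library was above each shCTRL library, and the rise was 1.37-fold (log2 fold change 0.46 ± 0.086 SE, adjusted p = 0.00125). It was 0.24 in the GC-adjusted fit (adjusted p = 0.00415) and was called in each alternative of both fits, with adjusted p no higher than 0.0358.

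H1FX (H1.10, a linker histone with a GC-rich gene, chr3:129314771-129316277, minus strand) had 49.1, 44.6 and 67.5 CPM in shCTRL and 118, 107 and 92.2 CPM in shFITM2. The groups did not overlap, and the fold was 1.98 (log2 0.98 ± 0.162, adjusted p = 0.00177). Its transcript is 68.6% GC against a median of 48.6% for tested genes, and the GC-adjusted log2 fold change was 0.07 (adjusted p = 0.505). Over the alternatives of that fit the adjusted p ran from 0.238 to 0.950. Its antisense partner H1FX-AS1, which overlaps it, had 0 to 12 reads per library.

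Of the H2A variants H2AFJ rose most. H2AFJ (H2A.J, chr12:14774383-14778002, plus strand) encodes a variant known from senescent cells. It had 34.4, 30.2 and 47.5 CPM in shCTRL and 82.1, 75.8 and 73.0 CPM in shFITM2. The groups were well apart, and the fold was 2.06 (log2 1.04 ± 0.150, adjusted p = 0.000643). The GC-adjusted log2 fold change was 0.39 (adjusted p = 0.000522) with the GC content of 1 transcript and 0.83 with the mean GC content of all its transcripts.

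H2AFX (H2AX, the variant phosphorylated at DNA breaks, chr11:119093854-119095467, minus strand) had 278, 251 and 439 CPM in shCTRL and 457, 463 and 461 CPM in shFITM2. The shFITM2 libraries were nearly level and all above shCTRL, where replicate 3 was close to them. It was not called (log2 0.51 ± 0.215, adjusted p = 0.0988). Without shCTRL replicate 3 the log2 fold change was 0.79 (adjusted p = 9.58e-18), and the DESeq2 Wald test, which called 46.4% of all genes, gave 0.52 (adjusted p = 0.00282). Its transcript is 66.4% GC, and in the GC-adjusted fit it was lower, at -0.28 ± 0.052 (adjusted p = 0.000889). Over all alternatives of the group fit the adjusted p ran from 9.58e-18 to 0.291, and the direction of H2AFX therefore depends on how GC content is treated.

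H2AFZ and H2AFV encode the H2A.Z proteins, which mark promoters and differ little in sequence. H2AFZ (chr4:99948086-99950388, minus strand) had 406, 441 and 487 CPM in shCTRL and 469, 485 and 467 CPM in shFITM2, so the groups overlapped (log2 0.09, adjusted p = 0.321; GC-adjusted 0.19, adjusted p = 0.0523). H2AFV (chr7:44826791-44848083, minus strand) had 212, 228 and 199 CPM against 198, 191 and 190 CPM. All shFITM2 libraries lay below shCTRL, by little, and it was not called (log2 -0.14, adjusted p = 0.103; GC-adjusted 0.10, adjusted p = 0.120). Without shCTRL replicate 3 both were called, H2AFZ at 0.15 (adjusted p = 0.00480) and H2AFV at -0.20 (adjusted p = 0.000991).

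H2AFY (macroH2A1, a large variant with a macro domain, chr5:135333900-135399914, minus strand) was level, at 356, 347 and 336 CPM in shCTRL and 340, 342 and 332 CPM in shFITM2 (log2 -0.03, adjusted p = 0.653). In the GC-adjusted fit it was lower, at -0.34 (adjusted p = 0.000208) with 1 transcript and -0.18 (adjusted p = 0.00944) with the mean of all. The antisense gene C5orf66 overlaps it and had 21 to 39 reads per library.

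H3F3A and H3F3B encode the same protein, H3.3, from genes on different chromosomes. H3F3A (chr1:226061851-226072001, plus strand) had 406, 421 and 432 CPM in shCTRL and 478, 497 and 480 CPM in shFITM2, with no overlap, and rose 1.157-fold (log2 0.21 ± 0.059, adjusted p = 0.0123). Leaving out shCTRL replicate 1 (adjusted p = 0.0764) or shFITM2 replicate 2 (adjusted p = 0.0843, the highest over its alternatives) ended the call. In the GC-adjusted fit the rise was larger, at 0.55 (adjusted p = 7.02e-06). H3F3A shares near-identical coding sequence with processed copies elsewhere in the genome, and how reads with several places were counted is not given in the sources used here.

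H3F3B (chr17:75776434-75785893, minus strand) had 500, 511 and 585 CPM in shCTRL and 577, 570 and 587 CPM in shFITM2, and the groups overlapped (log2 0.12 ± 0.070, adjusted p = 0.180). It was called without shCTRL replicate 3 (0.19, adjusted p = 0.000402). The GC-adjusted fit gave 0.36 (adjusted p = 0.00940) with 1 transcript and -0.14 (adjusted p = 0.0369) with the mean of all transcripts, so that call turned with the GC content assigned to the gene. UNK overlaps H3F3B on the opposite strand over 1123 bases and had 532 to 734 reads per library.

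Among canonical H2A genes, HIST1H2AC and HIST3H2A rose and the other 3 tested were not called. HIST1H2AC (chr6:26124145-26139116, plus strand) had 20.8, 21.6 and 18.7 CPM in shCTRL and 25.3, 27.7 and 24.8 CPM in shFITM2. The groups did not overlap and the fold was 1.27 (log2 0.35 ± 0.099, adjusted p = 0.0128). The GC-adjusted value was higher, at 0.64 ± 0.088 (adjusted p = 6.31e-05), and in the group fit leaving out shFITM2 replicate 2 ended the call (adjusted p = 0.0791, the highest over its alternatives). For HIST1H2BC, its divergent partner with 112 reads, the log2 fold change was 0.26 (adjusted p = 0.671).

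HIST3H2A (chr1:228456979-228457873, minus strand), of the small HIST3 cluster, had 8.05, 7.41 and 8.15 CPM in shCTRL and 12.2, 13.5 and 9.26 CPM in shFITM2, with replicate 3 of shFITM2 close to shCTRL. The fold was 1.48 (log2 0.57 ± 0.154, adjusted p = 0.00989), and leaving out shFITM2 replicate 2 ended the call (adjusted p = 0.0639). The GC-adjusted log2 fold change was 0.13 (adjusted p = 0.524, and from 0.223 to 0.951 over the alternatives of that fit), for a transcript of 57.7% GC. HIST2H2AC, named after its values were seen, had 0, 2 and 11 reads against 10, 12 and 12. It was called by limma-voom (adjusted p = 0.0435), which called 50.1% of all genes, and without shCTRL replicate 3 (adjusted p = 0.00211), and not in the group fit (adjusted p = 0.161).

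Of the 10 tested H2B genes 0 were called in the group fit by edgeR, where 0 also had an unadjusted p under 0.05, and DESeq2 and limma-voom called 0 as well. HIST1H2BK (chr6:27146418-27146798, minus strand) had 26.7, 23.7 and 39.8 CPM in shCTRL and 34.0, 34.1 and 37.1 CPM in shFITM2, and its highest library was shCTRL replicate 3 (log2 0.22 ± 0.175, adjusted p = 0.321). Without that library it was called higher (0.47, adjusted p = 2.48e-05), and in the GC-adjusted fit lower (-0.35 ± 0.101, adjusted p = 0.0179), for a transcript of 61.2% GC. Leaving out shFITM2 replicate 1 (adjusted p = 0.104) or 2 (adjusted p = 0.0859) ended the GC-adjusted call. The gene with the most HIST reads thus has no direction that holds across these fits.

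HIST2H2BE had 7.31, 3.95 and 6.04 CPM in shCTRL and 6.42, 8.45 and 8.43 CPM in shFITM2, and the groups overlapped (log2 0.43, adjusted p = 0.122). HIST1H2BD, another H2B gene known to give polyadenylated mRNA, had 5.83, 5.03 and 6.98 CPM against 5.71, 7.82 and 8.37 CPM (log2 0.30, adjusted p = 0.213). HIST2H2BE was called without shCTRL replicate 1 (log2 0.64, adjusted p = 0.0486) and, after GC adjustment, HIST1H2BD without shCTRL replicate 3 (adjusted p = 0.0325).

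Among the 3 tested H3 genes, HIST1H3E rose and HIST1H3G and HIST1H3H were not called. HIST1H3E (an H3.1 gene, chr6:26224199-26227473, plus strand) had 3.603, 2.54 and 4.34 CPM in shCTRL and 7.90, 6.10 and 6.66 CPM in shFITM2. All shFITM2 libraries stood above all shCTRL libraries, and the fold was 1.98 (log2 0.98 ± 0.210, adjusted p = 0.00273). It was 1.18 ± 0.210 in the GC-adjusted fit (adjusted p = 0.000572) and was called in each alternative of both fits, with adjusted p no higher than 0.0208. HIST1H3H, also an H3.1 gene, had 3.92, 1.73 and 2.82 CPM against 1.92, 2.07 and 2.30 CPM (log2 -0.43, adjusted p = 0.254). HIST1H3H was called lower without shCTRL replicate 2 (-0.69, adjusted p = 0.0483).

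Among the 3 tested H4 genes, HIST1H4I fell, the single canonical gene called lower in the group fit. HIST1H4I (chr6:27138588-27139881, plus strand), which encodes histone H4, had 21.8, 23.4 and 15.3 CPM in shCTRL and 12.5, 11.96 and 13.2 CPM in shFITM2. The groups did not overlap, with shCTRL replicate 3 nearest to shFITM2, and the fold was 0.621 (log2 -0.69 ± 0.150, adjusted p = 0.00297). The GC-adjusted value was -0.60 ± 0.132 (adjusted p = 0.00345), and the call held in each alternative of both fits, with adjusted p no higher than 0.0273. HIST4H4 and HIST1H4H, the other tested H4 genes, had 142 and 91 reads and log2 fold changes of 0.25 and -0.05 (GC-adjusted -0.18 and 0.16), none called.

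HIST2H4B, named after its values were seen, did not pass the expression filter and had 24, 6 and 13 reads in shCTRL and 2, 1 and 1 in shFITM2. A fit without the filter, in which 25.4% of 28729 genes were called, called it lower (adjusted p = 0.000334). HIST2H4A is a near-identical copy of it and had 5, 1 and 0 reads against 3, 2 and 3, so how reads were shared between them is uncertain. The same holds for HIST2H3A with HIST2H3C and HIST2H2AA3 with HIST2H2AA4, each with fewer than 10 reads.

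Both tested canonical linker genes, HIST1H1C and HIST1H1E, were not called. HIST1H1C had 9.64, 8.82 and 9.15 CPM in shCTRL and 8.18, 10.5 and 11.0 CPM in shFITM2 (log2 0.10, adjusted p = 0.569), and its GC-adjusted value was -0.32 (adjusted p = 0.119). HIST1H1E had 54 reads in all, and its shFITM2 libraries (0.220, 0.345 and 0.531 CPM) lay below shCTRL (0.583, 0.595 and 0.763 CPM), with a log2 fold change of -0.82 ± 0.487 (adjusted p = 0.185).

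Other RNAs that lack a poly(A) tail were counted beside the canonical genes. Of 25 such RNAs 12 were at 0 in all libraries, RN7SK, RMRP, RPPH1 and RN7SL1 among them. The list summed to 35, 37 and 45 reads in shCTRL and 98, 138 and 138 reads in shFITM2. RN7SL2, an RNA of the signal recognition particle and the single one tested, had 14, 7 and 28 reads against 82, 124 and 119 and was called higher (log2 2.77 ± 0.400; GC-adjusted 2.14). The rise of the list sum lay in RN7SL2, which gave most of the list's reads in each shFITM2 library. The part of these reads in the results for HIST genes was not tested.

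Genes that make, process and carry histones were taken from 3 lists of 79 genes: transcription and 3′ end formation of histone mRNA, histone chaperones, and loading of H2A.Z. In the group fit 19 of the 79 were called higher (24.1%, against 24.2% of all tested genes) and 30 lower (38.0%, against 24.5%), with a median log2 fold change of -0.05. In the GC-adjusted fit 5 were higher (6.33%, against 11.8%) and 30 lower (38.0%, against 17.4%), with a median of -0.12. In both fits 4 were higher and 15 lower, against 1157 higher and 1465 lower of all 14635 genes in both fits. Of the 32 genes of the 3′ end list 6 were higher (18.8%) and 12 lower (37.5%, median -0.20), and after GC adjustment 0 were higher and 12 lower (37.5%, median -0.17). Of these, 8 were lower in both fits.

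SLBP, which binds the stem-loop and accompanies the mRNA from processing to translation, stood at 150, 148 and 145 CPM in shCTRL and 109, 112 and 110 CPM in shFITM2. The libraries of each group lay close together and the groups far apart (log2 -0.42 ± 0.063, adjusted p = 0.000369; GC-adjusted -0.51). ERI1, the exonuclease that trims the end after the stem-loop, had 27.4, 27.3 and 30.3 CPM against 15.6, 16.7 and 15.2 CPM (log2 -0.84 ± 0.098; GC-adjusted -0.47). Both were called lower in each alternative of both fits, with adjusted p no higher than 0.0283. CPSF3, the endonuclease that makes the cut, was lower at -0.62 (GC-adjusted -0.39).

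CPSF2, the partner of CPSF3, was lower at -0.58 (GC-adjusted -0.19, a call that ended without replicate 1 of either group or replicate 2 of shFITM2). NPAT, the activator of histone gene transcription that acts downstream of cyclin E, had 58.8, 65.6 and 55.8 CPM in shCTRL and 35.2, 37.3 and 46.1 CPM in shFITM2. It was called lower in the group fit (log2 -0.60 ± 0.109, adjusted p = 0.000982) and not after GC adjustment (-0.17, adjusted p = 0.121, from 0.0299 to 0.391 over the alternatives). CASP8AP2 (FLASH), which joins the U7 RNP in processing, had 36.2, 39.1 and 35.4 CPM against 19.8, 23.1 and 23.7 CPM (log2 -0.73 ± 0.099; GC-adjusted -0.32, adjusted p = 0.00812, lost at 0.0600 without shFITM2 replicate 1).

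The U7-specific proteins did not move together. LSM10 was called higher (0.45, adjusted p = 0.0134), which ended on leaving out shCTRL replicate 1 (adjusted p = 0.0577) or shFITM2 replicate 2 (adjusted p = 0.0677) and after GC adjustment (0.03, adjusted p = 0.872). LSM11 (-0.25, adjusted p = 0.0544) and ZNF473 (-0.20, adjusted p = 0.0768) were not called, and both were called lower without shCTRL replicate 3 (adjusted p = 0.0247 and 0.00478). After GC adjustment LSM11 was at -0.05 and ZNF473 at -0.18, neither called, but ZNF473 was called lower with the mean GC content of all transcripts (-0.36, adjusted p = 0.00385).

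The histone chaperone list held 31 genes, among them the histone CENPA and the acetyltransferase HAT1. Of the 31 genes 8 were called higher (25.8%, near the 24.2% of all tested genes) and 15 lower (48.4%, against 24.5%), with a median of -0.18. After GC adjustment 2 were higher (6.45%, against 11.8%) and 10 lower (32.3%, against 17.4%), with a median of -0.11. NAP1L1, a carrier of H2A-H2B dimers, had 1010, 1061 and 786 CPM in shCTRL and 540, 548 and 558 CPM in shFITM2, with shCTRL replicate 3 the nearest to shFITM2 (log2 -0.80 ± 0.099; GC-adjusted -0.37). SET (-0.49; GC-adjusted -0.29) and SUPT16H, a subunit of the FACT complex that moves nucleosomes ahead of polymerases (-0.44; GC-adjusted -0.25), were lower in both fits. HAT1, which acetylates newly made H4, was lower in the group fit (-0.57, adjusted p = 0.000299) and not after GC adjustment (-0.12, adjusted p = 0.122), except with the mean GC content of all transcripts (-0.17, adjusted p = 0.0348).

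The 2 chaperone-list genes higher in both fits, named after their values were seen, were CENPA, the H3 variant of centromeres (0.32; GC-adjusted 0.37), and its chaperone HJURP (0.20; GC-adjusted 0.20). CENPA carries no symbol of the rule and is not among the 87 genes.

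Of 16 genes that load or remove H2A.Z, 5 were called higher in the group fit (31.2%, against 24.2% of all tested genes) and 3 lower (18.8%, against 24.5%), with a median of 0.08. After GC adjustment 3 were higher (18.8%, against 11.8%) and 8 lower (50.0%, against 17.4%), with a median of -0.16. CFDP1, the relative of the yeast Swc5 subunit of the H2A.Z loading complex, had 9.91, 9.90 and 14.2 CPM in shCTRL and 20.3, 22.5 and 21.8 CPM in shFITM2. Its groups were clearly apart (log2 0.93 ± 0.143; GC-adjusted 1.05). ACTL6A, an actin-like subunit, was lower (-0.43; GC-adjusted -0.16, a call that ended without shCTRL replicate 1, without any 1 shFITM2 library and with the mean GC content of all transcripts). YEATS4 (-0.51; GC-adjusted -0.17) and ANP32E, which takes H2A.Z out of nucleosomes (-0.40; GC-adjusted 0.07), were lower in the group fit and not called after GC adjustment with 1 transcript. With the mean GC content of all transcripts YEATS4 was called lower (-0.36, adjusted p = 0.0136), and with 1 transcript it was called on leaving out shCTRL replicate 3 (-0.23, adjusted p = 0.0329).

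Of all 14635 genes in both fits, 314 were called in opposite directions by the fits. Over the 3 lists 5 genes were, named after their values were seen: CPSF1, UPF1, TONSL, DMAP1 and RUVBL2. All were higher in the group fit and lower after GC adjustment, and their transcripts are 59.5% to 65.7% GC. As a list read beside these, 42 S-phase genes had 5 called higher (11.9%, against 24.2% of all tested genes) and 23 lower (54.8%, against 24.5%), with a median of -0.31. After GC adjustment 0 were higher and 27 lower (64.3%, against 17.4%), with a median of -0.30.

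**Figure D5:**
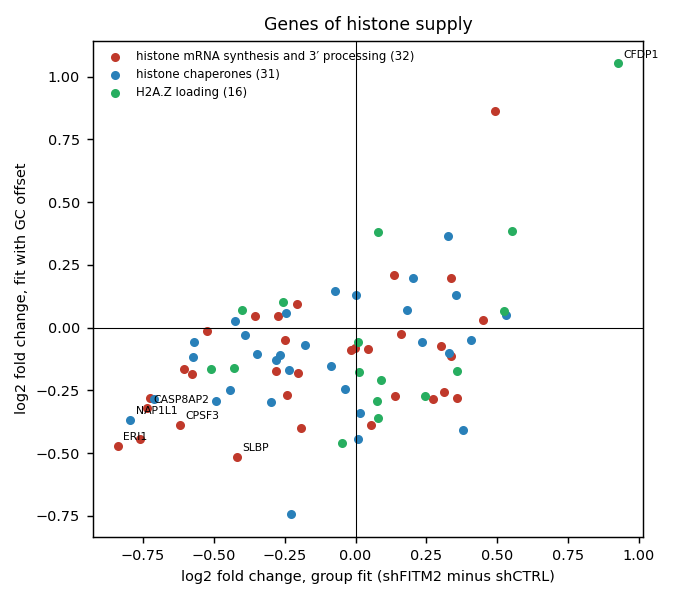
Log2 fold change (shFITM2 minus shCTRL) of the 79 tested genes of histone supply in the group fit (x axis) and in the GC-adjusted fit (y axis), coloured by list. SLBP (-0.42 and -0.51) and ERI1 (-0.84 and -0.47) lie lower on both axes, and CFDP1 (0.93 and 1.05) higher on both.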

How the data were processed

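Libraries came from Trizol-extracted total RNA with a strand-keeping NEBNext Ultra kit, per the labels' protocols. The authors deposited raw read counts per gene for all 6 libraries in 1 table, and these counts were used as deposited. Named in the submitters' processing notes are hg19, DESeq2 1.16.1, featureCounts 1.5.0-p3, HISAT2 2.0.5 and StringTie 1.3.3b. However, all 58735 genes with an Ensembl identifier have the GRCh38 position and strand of GENCODE 29, so GRCh38 coordinates are given. How the counting treated strand and reads with several places is not given in the sources used here, so overlapping genes and near-identical copies are uncertain.

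Counts were tested with edgeR 4.0.16 (limma 3.58.1, R 4.3.3; robust quasi-likelihood fit, group as the sole term, TMM, filterByExpr at a count of at least 10 and a total of at least 15, Benjamini-Hochberg adjustment over 14809 genes), after a test on simulated data. CPM used TMM library sizes. For the GC-adjusted fit, the trend of log2 deviations with GC content (1 GENCODE transcript per gene, spline with 6 degrees of freedom, per library) entered as an offset. A GC value existed for 98.8% of tested genes. Alternatives were other size factors or library totals, no filter or a filter at a mean of 1 CPM, DESeq2 1.42.0, limma-voom, an adjusted p under 0.01, a block for the replicate number, removal of each library, and GC content from the mean of all transcripts, which was chosen after seeing the data.

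Named genes were FITM2, each tested variant, the 12 HIST genes highest per kilobase, called HIST genes (up to 6 in each direction), those with opposite calls, 6 fixed genes of histone mRNA processing and the 4 with the smallest p of each supply list. Divergent partners and genes said to be named after their values were seen stand outside that rule. Members and lists were chosen with earlier results of these data known. Of the supply lists, SPT2, ZCCHC6 and ZCCHC11 were not matched by name and are not analysed here.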

Additional observations from a re-analysis of the deposited data

How the results depend on the processing

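The direction and the call of H1F0, H2AFJ, HIST1H3E and HIST1H4I held under each alternative at an adjusted p under 0.05 in both fits. The GC offset brought all called genes from 7205 to 4275, canonical genes called lower from 1 to 2, variants called lower from 0 to 2 and supply genes called higher from 19 to 5. No expression filter also gave 2 canonical genes lower, and a threshold of 0.01 left 5 supply genes higher. Among the genes named by rule, the log2 fold changes that changed sign with the offset were those of H2AFX (-0.28), HIST1H2BK (-0.35), HIST1H1C (-0.32), HIST1H2AE (-0.084), H2AFV (0.10) and ANP32E (0.071). With the mean GC content of all transcripts, among the same genes the GC-adjusted values of H3F3B (-0.14), H2AFV (-0.091), LSM10 (-0.11) and LSM11 (0.009) changed sign against those with 1 transcript. The cause was not tested.

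Leaving out 1 library at a time, all called genes ranged from 5338 (without shFITM2 replicate 1) to 9008 (without shCTRL replicate 3). Canonical genes called higher ranged from 1 (without shFITM2 replicate 2) to 6 (without shCTRL replicate 3) and lower from 1 to 3 (without shCTRL replicate 2). Variants called higher ranged from 3 to 7 and lower from 0 to 1, both highest without shCTRL replicate 3, and supply genes called higher from 6 (without shFITM2 replicate 1) to 23. In the GC-adjusted fit all called genes ranged from 2806 (without shFITM2 replicate 1) to 5618 (without shCTRL replicate 3), canonical genes higher from 2 to 5, supply genes higher from 3 to 9 and lower from 17 (without shFITM2 replicate 1) to 36. Genes with few reads changed sign: HIST1H2AE ranged from -0.10 to 0.96, HIST1H2BC from -0.29 to 0.60 and HIST1H2BJ from -0.11 to 0.18, and after GC adjustment from -0.42 to 0.56, -0.23 to 0.66 and -0.13 to 0.17, with LSM10 from -0.026 to 0.09.

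Same-numbered libraries did not deviate together (Pearson r across genes -0.04, -0.01 and -0.07), so the numbers were not taken to pair samples. With the replicate block 6729 genes were called, 3 canonical genes higher and 1 lower and 4 variants higher and 0 lower. The block ended the call of H3F3A (adjusted p = 0.0508) and gave one for H2AFX (adjusted p = 0.0224), and after GC adjustment one for H2AFZ (adjusted p = 0.0330). Canonical genes had a median of 227 reads where tested and 6.5 where not, and the 48 canonical genes below the filter had no test.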
